A study of Mus musculus with 6 samples.

Results

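The Lalba-set cells are non-dividing luminal cells of a mouse mammary tumor in which UMIs of Lalba, Fcgbp and Atp6v1b1 together outnumbered those of 3 other gene sets. A UMI marks 1 captured RNA molecule, so UMI counts are molecule counts. A tumor cell was kept when it held 200 to 4000 genes and at most 25% mitochondrial UMIs. It passed the luminal gate when it held at least 2 UMIs of Epcam, none of Ptprc or Pecam1, fewer than 5 of Krt5 and Krt14 together, and at most 1 of Mki67 and Top2a together. Within that gate, a cell was chosen when its sum of Lalba, Fcgbp and Atp6v1b1 was at least 4 UMIs and larger than each of the sums of Aqp5, Tspan8 and Cldn10, of Klk6, Klk10 and Dmkn, and of Ifit1, Ifit3 and Iigp1. The members were therefore chosen by their own UMIs of these 3 genes, and the levels of these genes are given below as a description, with no test. The rule took 4170 cells: 4170 of the 8588 gated luminal cells, of the 17562 kept tumor cells and of the 24527 deposited tumor cells, in a series of 58561 cells that also holds kidney.

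The study compared a microfluidic tissue dissociation platform with a control digestion of minced tissue. All 3 tumor libraries came from MMTV-PyMT tumor tissue at 10 weeks, in which the mammary tumor virus promoter drives polyoma middle T antigen in mammary epithelium, so no library is of normal gland. Tissue was digested with type I collagenase. The control was digested for 60 min, and platform samples were collected at a 15 min or a 60 min interval. By the paper's description of intervals, the 15 min suspension was eluted and the remaining tissue was processed further for the 60 min interval. Cells negative for the dead-cell dye SytoxBlue were sorted before 10x Chromium capture. There was 1 library per condition, and by the study's description of its design the conditions of a replicate shared their source mouse. Only a single replicate was sequenced, so the conditions have no replicate error and every interval below is a 95% interval for counting error alone. The gated cells that were not members are called the other gated cells, and 3 classes among them, cut by the same rule for their own sums, are called Aqp5-set (2233 cells), Klk-set (433 cells) and Ifit-set (108 cells). The median member held 8636.5 UMIs in the control library, 9599 in the 15 min library and 9215 in the 60 min library, with median mitochondrial shares of 10.2%, 8.45% and 10.98%. No cell barcode was shared between the members of any pair of libraries. Where 3 values follow each other below, they are in the order control, 15 min and 60 min.

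Milk-secreting alveolar cells arise from luminal progenitors of the mammary gland under the transcription factor Elf5 and prolactin signalling through STAT5. They secrete caseins, whey proteins and lactose, and lactose is made when alpha-lactalbumin, the product of Lalba, binds the galactosyltransferase B4galt1 in the Golgi. Fcgbp encodes a mucus protein that binds the Fc part of IgG, and Atp6v1b1 encodes a subunit of the vacuolar proton pump that marks acid-secreting cells elsewhere, where the transcription factor Foxi1 drives it.

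The stretch of 200 bases that ends 51 bases before the transcription start is shown for each of the 3 rule genes, because their UMIs together chose the members. The sequences are from RefSeq on GRCm38.p6, the build of the mm10 alignment, and are written 5′ to 3′ on the strand of the gene. They lie at chr15:98482734-98482933 on the minus strand for Lalba, at chr7:28070986-28071185 on the plus strand for Fcgbp and at chr6:83742767-83742966 on the plus strand for Atp6v1b1. Capitals mark TGTTTAC, a core that forkhead factors bind.
Lalba: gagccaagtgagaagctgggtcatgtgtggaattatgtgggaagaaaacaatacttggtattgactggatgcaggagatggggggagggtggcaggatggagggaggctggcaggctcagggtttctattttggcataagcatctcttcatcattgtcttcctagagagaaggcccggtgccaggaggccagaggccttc
Fcgbp: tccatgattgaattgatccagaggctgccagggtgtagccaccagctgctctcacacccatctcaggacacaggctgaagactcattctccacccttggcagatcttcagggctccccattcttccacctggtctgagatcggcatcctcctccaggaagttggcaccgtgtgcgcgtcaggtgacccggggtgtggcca
Atp6v1b1: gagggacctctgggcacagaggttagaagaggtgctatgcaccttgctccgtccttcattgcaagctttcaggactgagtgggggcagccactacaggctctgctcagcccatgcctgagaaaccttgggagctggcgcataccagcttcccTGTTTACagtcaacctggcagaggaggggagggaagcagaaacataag
The last line shows 29 bases of the promoter of Csn2, the beta-casein gene, at chr5:87699500-87699528 on the minus strand, with TTCNNNGAA, the palindrome that STAT factors bind, in capitals.
Csn2: tcacgtagacTTCTTGGAAttgaagggac
Motifs were searched on both strands in the 250 bases before the start. TTCNNNGAA was in none of the 3 rule-gene windows and in 3 of the 11 milk protein genes with a window (Csn1s1, Csn2 and Glycam1). Over all genes it was in 8.13% of 27025 genes and in 7.02% of 32851 windows. TGTTTAC was in the Atp6v1b1 window, 98 bases before the start, and in 3.17% of all windows. A match describes the letters in these windows and no more.

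The Lalba-set cells were the largest class that the rule cut from the gated luminal cells of each library, with 1440, 1825 and 905 cells. Their shares of all kept cells were 25.1% (23.99 to 26.2, exact binomial interval), 31.5% (30.3 to 32.7) and 15.0% (14.1 to 15.95). Their shares of the gated luminal cells were 49.6% (47.7 to 51.4), 51.1% (49.5 to 52.8) and 42.9% (40.7 to 45.0). The intervals of the kept-cell shares did not overlap, whereas those of the gated-cell shares of the control and 15 min did. With every cell thinned to 5000 UMIs, which left out 1782, 1091 and 1267 shallower kept cells, the shares were 26.4%, 31.9% and 14.3% of kept cells and 45.0%, 46.7% and 36.9% of gated cells. With 1 library each, the digestion and interval cannot be told apart from differences between the pieces of tissue, the sorts or the captures. A further 496, 795 and 363 gated cells had a sum of at least 4 that was not the largest, and the Aqp5-set class held 436, 677 and 307 of them.

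**Figure D1:**
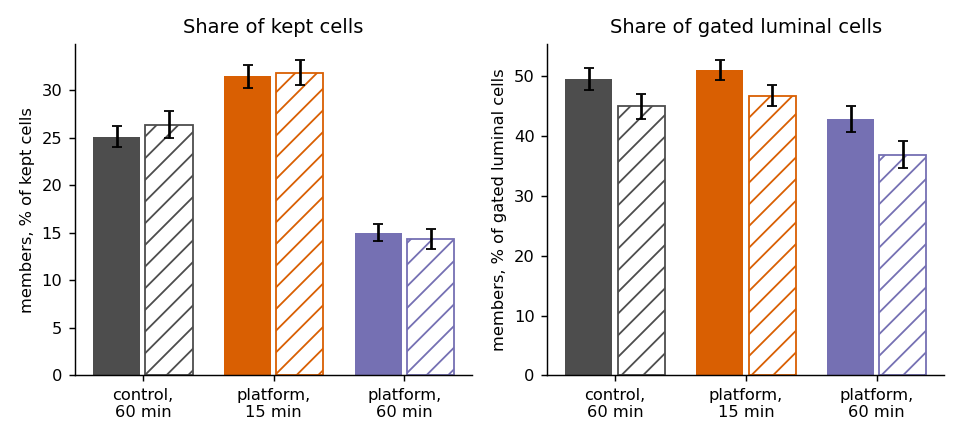
Share of members in each tumor library as a percent of kept cells and of gated luminal cells, with bars for the 95% exact binomial interval (counting error only, 1 library per condition). The 15 min library is highest in both panels (31.5% and 51.1%) and the 60 min library lowest (15.0% and 42.9%).

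Lalba supplied most of the UMIs that chose the members. Of the summed UMIs of the 3 rule genes, 78.4% were of Lalba, 13.2% of Fcgbp and 8.36% of Atp6v1b1. All 3 genes were seen in 47.6% of members (42.2%, 53.7% and 44.0% by library). Lalba was the largest of the 3 in 72.4% of members, Fcgbp in 15.3% and Atp6v1b1 in 10.1%. No Lalba UMI was found in 10.0% of members (7.5%, 10.2% and 13.7% by library), so the class is not one of Lalba alone. The sum ranged from 4 to 435 UMIs with a median of 27, or 27, 32 and 20 by library.

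Cells just below and just above the threshold were set side by side. The 53, 46 and 47 gated cells with a sum of 3 whose sum was otherwise largest held 229, 63.8 and 73.2 Lalba CPM (the summed UMIs of a gene over those cells per 1000000 of all their UMIs). The 57, 45 and 42 members with a sum of 4 held 370, 172 and 122 CPM. Wfdc18 levels, which the rule did not set, were 12118, 20406 and 14351 CPM at a sum of 3, 19350, 22681 and 20402 CPM at a sum of 4, and 15328, 15493 and 13987 CPM in the 68, 50 and 54 members with a sum of 5. Wfdc18 levels thus showed no step at the threshold that lasted to the next sum. Csn3 was higher at both sums above the threshold in each library. It was at 11094, 12434 and 9476 CPM at a sum of 3. At a sum of 4 it was at 14729, 13857 and 12544 CPM, and at a sum of 5 at 12041, 13362 and 14260 CPM. Elf5 and Ltf were higher at sums of 4 and 5 than at 3 in the control and at 15 min, but not at 60 min.

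Lalba was at 3425, 3623 and 2467 CPM in members and at 457, 408 and 246 CPM in the other gated cells. Fcgbp was at 400, 759 and 387 CPM in members and at 87.0, 146 and 74.2 CPM in the others. Atp6v1b1 was at 285, 417 and 324 CPM against 147, 240 and 161 CPM. The ratios were 7.499, 8.88 and 10.0 for Lalba, 4.59, 5.21 and 5.21 for Fcgbp, and 1.94, 1.74 and 2.01 for Atp6v1b1, which is what the rule selected on. With the UMIs of each cell split at random into 2 parts, and cells chosen on 1 part with a sum of at least 2 and read on the other, the Lalba ratios were 6.78, 8.16 and 8.57, those of Fcgbp 3.73, 4.37 and 4.30, and those of Atp6v1b1 1.60, 1.56 and 1.63.

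Leukocytes, the kept cells with at least 2 Ptprc UMIs and no Epcam UMI, show what free RNA gave to cells that lack these genes. The median leukocyte held 10053.5, 9099 and 11251.5 UMIs. A Lalba UMI was seen in 12.9%, 16.3% and 6.73% of leukocytes against 92.5%, 89.8% and 86.3% of members, and their Lalba level was 13.6, 18.9 and 6.21 CPM. A Fcgbp UMI was in 0.887%, 3.80% and 1.06% of leukocytes against 56.8%, 69.4% and 59.3% of members. A sum of at least 4 was reached by 0 of 902 leukocytes in the control (which allows up to 0.333%), 0 of 763 at 15 min (up to 0.393%) and 1 of 1322 at 60 min.

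Fcgbp and Atp6v1b1 were seen more often in gated cells with a Lalba UMI than in those without, members or not. Thinned to 5000 UMIs, an Atp6v1b1 UMI was in 60.8%, 72.8% and 67.8% of gated cells with a Lalba UMI and in 38.8%, 53.7% and 44.6% of those without. A Fcgbp UMI was in 39.5%, 48.7% and 39.5% of cells with Lalba and in 25.1%, 32.9% and 22.8% of those without. Foxi1, which took no part in the rule, was in 21.7%, 32.9% and 20.02% against 14.9%, 22.2% and 15.7%. All 3 genes leaned the same way in each library. The intervals with and without Lalba were apart for Fcgbp and Atp6v1b1 in every library and for Foxi1 in all but the 60 min library.

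Wfdc18, a whey acidic protein family gene given as a marker of these cells, did not set them apart to the same degree. It was at 13752, 15575 and 15206 CPM in members and at 10736, 11737 and 10534 CPM in the other gated cells, ratios of 1.28, 1.33 and 1.44. It was abundant in members and in the other gated cells alike, and leukocytes held 125, 158 and 64.5 CPM of it. Across gated cells with and without a Lalba UMI its level was 12674 and 13594 CPM in the control, 14472 and 13035 CPM at 15 min, and 14599 and 10949 CPM at 60 min, so its direction was opposite in the control.

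Genes were compared between members and the other gated cells where they reached 20 CPM in either and 30 UMIs in all in each library, and a gene was called where its ratio was at least 1.5, or at most 1 over 1.5, in each of the 3 libraries. Of 4881 genes, 26 were higher (0.533%), of which 3 are the rule genes and 23 are not, and 84 were lower (1.72%), of which 4 (Aqp5, Cldn10, Dmkn and Klk10) are rule genes of other classes. The median ratio over all of them was 0.992, 0.976 and 0.975. Since the members were chosen on counts of these same cells, nothing is read from these counts beyond the levels.

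Milk protein genes stood higher in the Lalba-set cells. Of the 16 in the list, 12 reached the floor, all 12 had ratios above 1 in every library, and 7 were called higher, against 0.533% of all genes compared. Their median ratio was 1.91, 1.89 and 1.52. Over all genes compared, 1136 of 4881 had ratios above 1 in every library. The 7 were Csn2, Csn1s2a, Wap, Btn1a1, Xdh, Muc1 and Ltf, which is a mixed group of a casein pair, a whey protein, the milk fat globule proteins butyrophilin, xanthine oxidoreductase and mucin, and the iron-binding protein lactoferrin. The 4 below the floor were Csn1s2b, Glycam1, Lpo and Olah. Csn2 and Csn1s2a reached the floor of 20 CPM through the members alone. They were at 8.55, 4.82 and 19.7 CPM and at 7.74, 7.89 and 8.64 CPM in the others. Both thus entered these counts only because they were high in members, and nothing is read from their calls.

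Wap, the whey acidic protein, was at 128, 137 and 126 CPM in members and 37.0, 38.5 and 56.8 CPM in the others, ratios of 3.46, 3.55 and 2.22. Btn1a1 was at 79.0, 105 and 79.3 CPM in members and 20.5, 24.1 and 27.4 CPM in the others, ratios of 3.85, 4.35 and 2.89. A Wap UMI was in 32.2%, 29.7% and 32.2% of members and in 1.44%, 1.05% and 0.681% of leukocytes, and a Btn1a1 UMI in 33.4%, 39.0% and 38.3% of members and at most 0.454% of leukocytes. Both genes were thus found in 29.7% to 39.0% of members in each library. Xdh ratios were 2.02, 1.93 and 1.89, those of Ltf 1.65, 1.64 and 1.53, and those of Muc1 1.79, 1.85 and 1.52. Ltf was at 2306, 3472 and 4296 CPM in members and at 673, 777 and 1746 CPM in Aqp5-set cells. It had no shared direction along the sum of the rule genes, as given below.

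Csn3, kappa-casein, was high in members and in the other gated cells alike. It was at 15800, 18118 and 17694 CPM in members and 11385, 12000 and 11956 CPM in the others, ratios of 1.39, 1.51 and 1.48, beside 145, 209 and 74.9 CPM in leukocytes. It was below the 1.5-fold limit in the control and at 60 min and so was not called. Spp1 (osteopontin, ratios of 1.24, 1.63 and 1.16), Trf (transferrin, 1.25, 1.47 and 1.36) and Mfge8 (lactadherin, 1.25, 1.53 and 1.24) were likewise above 1 and not called, and the Mfge8 ratio was 0.986 against the gated cells with all 4 sums below 4. Csn1s1, alpha-casein, had ratios of 2.94, 5.74 and 1.46.

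The beta-casein signal came from very few cells. Csn2 was at 51.5, 109 and 66.4 CPM in members and 8.55, 4.82 and 19.7 CPM in the others, but its UMIs lay in 36, 30 and 19 members, or 2.50%, 1.64% and 2.10% of them. A single member held 414 of the 713 Csn2 UMIs of the control, another 509 of 1972 at 15 min and another 278 of 595 at 60 min. The share of leukocytes with a Csn2 UMI was 1.11%, 1.18% and 0.303%. At least 10 Csn2 UMIs were found in 28 members (11, 12 and 5 by library) and in 9 other gated cells. The limit of 10 was set after the counts were seen.

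Summed over these 28 cells, several milk transcripts were higher than in the other 4142 members. Csn1s1 was at 4170 CPM in them against 100 CPM, Csn1s2a at 3303 against 19.9 CPM and Wap at 1674 against 121 CPM. Glycam1, a milk mucin, was at 38.6 against 0.148 CPM, Btn1a1 at 263 against 89.3 CPM and Elf5 at 565 against 366 CPM. Lalba (4177 against 3297 CPM) and Csn3 (21500 against 17212 CPM) differed less, and Krt18 was lower (1566 against 2649 CPM). The 28 cells had fewer UMIs (median 7398.5 against 9216.5). Their median count was 13 UMIs of Csn1s1, 7.5 of Csn1s2a, 1 each of Wap and Btn1a1 and 0 of Glycam1. Counts ran from 0 to 260 for Wap and from 0 to 8 for Glycam1, so those sums rest on part of the 28 cells. Without cells of at least 10 Csn2 UMIs on either side, the geometric mean ratio of members to others over the 3 libraries was 2.31 for Csn2 and 2.70 for Csn1s2a.

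Genes of lactose synthesis beside Lalba were level between members and others. B4galt1, the partner of alpha-lactalbumin, was at 49.8, 56.8 and 42.1 CPM in members and 48.3, 53.5 and 47.3 CPM in the others, ratios of 1.03, 1.06 and 0.889. Of the 7 genes of this list that were compared, none was called, and the median ratio was 1.01, 0.911 and 0.954. Of 8 milk fat genes none was called either; Scd1, a fatty acid desaturase, had ratios of 1.20, 1.20 and 1.20 and Fasn, the fatty acid synthase, 0.789, 0.787 and 0.846.

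Genes of the proton pump list did not follow Atp6v1b1. None of the 10 compared was called, and their median ratio was 1.01, 0.976 and 0.988. Atp6v1a, the catalytic subunit, had ratios of 1.03, 0.980 and 1.15, and Atp6v1b2, the widely used form of the B subunit, 0.813, 0.905 and 0.963. The kidney intercalated cell transporters Slc4a1, Slc26a4 and Slc4a9 had no UMI in members. Foxi1 was at 58.0, 118 and 77.2 CPM in members and 46.5, 88.5 and 48.3 CPM in the others, ratios of 1.25, 1.34 and 1.60.

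Among alveolar and luminal progenitor genes, 6 of 12 compared had ratios above 1 in every library, 3 below, and none was called. Elf5 was at 327, 400 and 363 CPM in members and 223, 261 and 250 CPM in the others, ratios of 1.46, 1.54 and 1.45. Kit, a receptor of luminal progenitors, had ratios of 0.913, 0.922 and 1.01, and Aldh1a3, an aldehyde dehydrogenase of the same cells, 0.702, 0.228 and 0.195. Cd14 had ratios of 1.42, 1.33 and 1.45. Transcripts of protein folding in the endoplasmic reticulum were slightly higher, with 10 of 14 above 1 in every library, 2 below, none called and medians of 1.20, 1.19 and 1.11. Xbp1, a transcription factor of secretory cells, had ratios of 1.29, 1.45 and 1.41.

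Keratins of the tumor epithelium were lower or level. Krt7 was at 107, 87.1 and 102 CPM in members and 199, 246 and 193 CPM in the others, and was the 1 gene of 9 called lower in the luminal keratin and junction list. Krt19 had ratios of 0.773, 0.710 and 0.564. Krt8 and Krt18 were near 1 in the control (1.03 and 1.02) and below it at 15 min (0.782 and 0.826) and 60 min (0.825 and 0.863). The gate on Krt5 and Krt14 fixed the level of basal keratins, but Krt17, which it did not use, was at 7.30, 1.66 and 1.12 CPM in members and 23.4, 29.6 and 21.8 CPM in the others. Aqp5-set cells also held little Krt17, at 3.03, 0.972 and 2.40 CPM. Of hormone-sensing luminal genes, Ly6a was lower (0.310, 0.302 and 0.664) and Prlr, the prolactin receptor, was level (1.11, 1.03 and 1.13). Esr1 stayed at or below 3.01 CPM in members, and Pgr at or below 0.939 CPM.

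Outside the lists, the gene with the highest ratio by the library nearest to 1 was Lao1, an L-amino acid oxidase that is secreted into milk. It was at 98.0, 83.0 and 78.2 CPM in members and 16.5, 17.8 and 20.3 CPM in the others, and 24.9%, 23.2% and 23.2% of members had a UMI of it. Lrg1, a secreted leucine-rich glycoprotein, was at 998, 1212 and 1273 CPM against 518, 516 and 574 CPM. Lipa, the lysosomal acid lipase, had ratios of 1.82, 2.23 and 2.02. Folr1, a folate receptor, had ratios of 1.60, 1.59 and 1.82. Scnn1b, a subunit of the epithelial sodium channel, had ratios of 1.69, 2.05 and 2.11, and Pinc, a noncoding RNA known from the pregnant gland, 1.95, 2.21 and 2.22. The others among the first 20 were Extl1, Dppa1, Wfdc17, Pdlim3, Slc28a3, Stom, BC016548, Slitrk4 and Abhd5 beside the milk protein genes above. The 4 lowest were Ctgf, Krt17, Cryab and Adamts1. Cryab, a small heat shock protein, was at 38.6, 41.2 and 62.8 CPM in members and 114, 144 and 180 CPM in the others. Ctgf, a matrix-associated growth factor, was at 0.723, 2.21 and 11.04 CPM against 21.4, 34.4 and 72.5 CPM. Aqp5-set cells held 48.2, 48.5 and 88.9 CPM of Cryab and 2.54, 6.18 and 31.7 CPM of Ctgf. Adamts1 was at 20.2, 7.84 and 20.2 CPM in members and 20.2, 7.77 and 8.17 CPM in Aqp5-set cells. Klk-set cells held 416, 521 and 392 CPM of Cryab and 341, 192 and 389 CPM of Adamts1. Low Cryab and Adamts1 levels were thus shared with Aqp5-set cells.

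**Figure D2:**
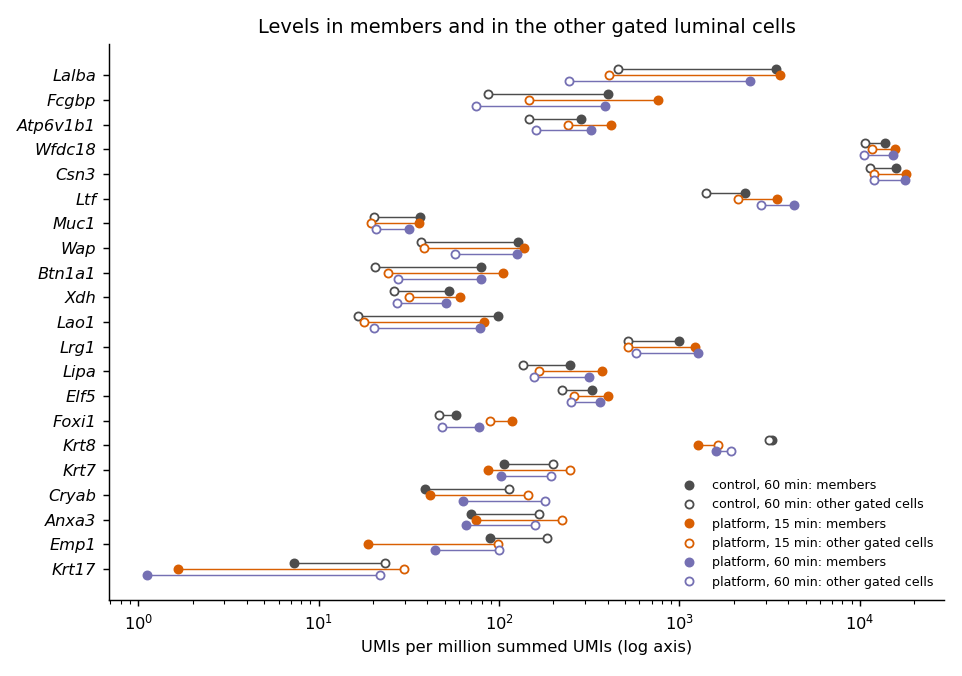
Level of named genes in members (filled points) and in the other gated luminal cells (open points) of each tumor library, as UMIs per 1000000 summed UMIs on a log axis. Lalba lies 7.499 to 10.0 times higher in members, Csn3 and Wfdc18 are high in both, and Krt7 and Cryab lie lower in members.

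Over all gated cells thinned to 5000 UMIs, levels were ordered along the sum of the 3 rule genes. From cells with a sum of 0 to cells with at least 20, Csn3 went from 8852 to 17608 CPM in the control, from 7495 to 19502 at 15 min and from 8481 to 19442 at 60 min. Folr1 went from 161 to 654, from 120 to 662 and from 122 to 688 CPM. Krt7 went the other way, from 354 to 46.0, from 569 to 56.5 and from 290 to 63.9 CPM. Lrg1 (285 to 1240, 252 to 1473 and 343 to 1600 CPM), Lipa (75.7 to 285, 65.7 to 463 and 82.1 to 441 CPM) and Elf5 (177 to 343, 185 to 387 and 204 to 387 CPM) moved as Csn3 did, and Cryab went from 205 to 19.2, from 251 to 19.95 and from 267 to 18.5 CPM. Wfdc18 went from 13722 to 12847 CPM in the control, from 13228 to 14418 at 15 min and from 9375 to 15139 at 60 min. Ltf went from 2158 to 2071, from 3069 to 3154 and from 2951 to 3672 CPM. At sums of 10 to 19 Ltf was lower, at 1541 CPM, in the control and at 2222 CPM at 15 min. Apart from Wfdc18 and Ltf, the levels of these genes thus formed a range over the gated cells, members or not. Lrg1, Lipa, Folr1 and Cryab were named by their ratios of members to others in the same cells, so their order is a description only.

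**Figure D3:**
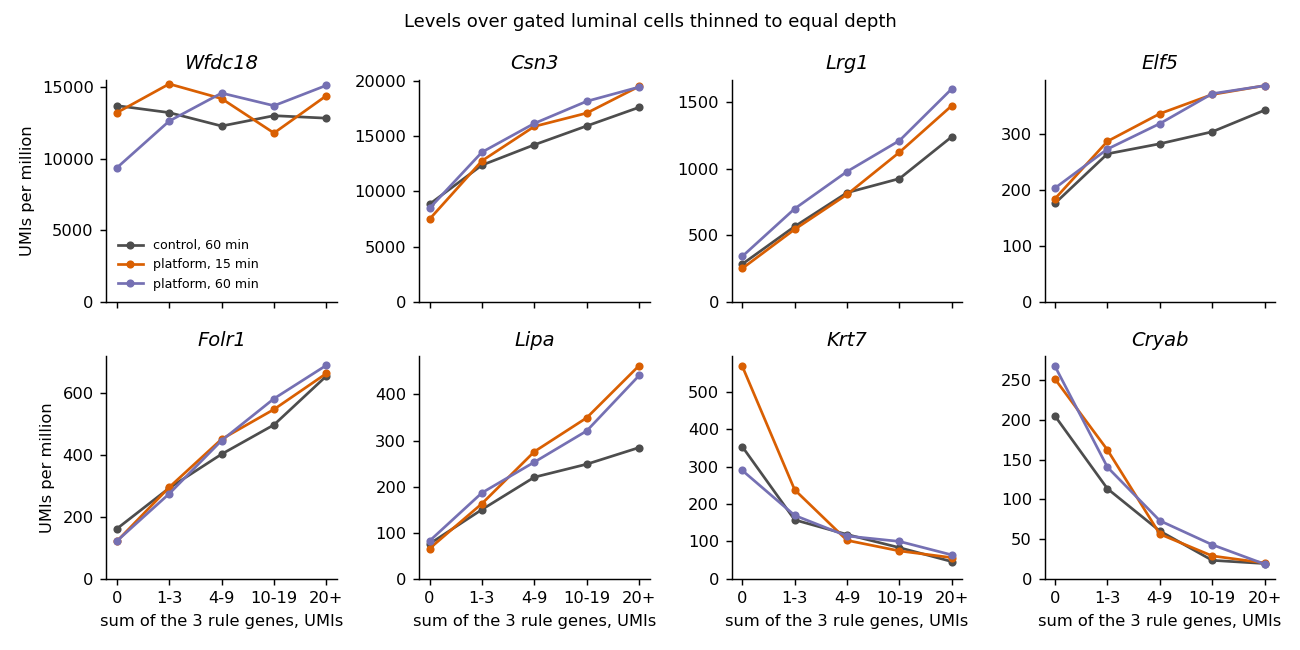
Level of 8 genes over gated luminal cells thinned to 5000 UMIs, in UMIs per 1000000, against the sum of the 3 rule genes in bins from 0 to 20 or more, with 1 line per tumor library. Csn3, Lrg1, Lipa, Folr1 and Elf5 lie higher at high sums and Krt7 and Cryab lower, while Wfdc18 has no shared direction over the 3 libraries.

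Set against each other class, the Lalba-set cells differed by other genes. Against Aqp5-set cells, Ltf had ratios of 3.43, 4.47 and 2.46, and Csn2, Lao1 and Csn1s2a were also among the 5 with the highest ratios. Enho and Scrg1 were lower in members: Enho, which encodes the secreted peptide adropin, was at 23.0, 25.7 and 10.5 CPM against 71.7, 97.4 and 38.3 CPM in Aqp5-set cells, although its ratio was 3.44 against the gated cells with all 4 sums below 4. Against Klk-set cells, Tmem37, a calcium channel subunit-like membrane protein, had ratios of 24.8, 41.1 and 25.2 and Foxi1 had 8.62, 9.91 and 10.0. Against Ifit-set cells, Scgb2b27 and Lao1 led, and the interferon-induced genes Mx1 and Rsad2 were lower, as the rule for that class selects on related genes. The Ifit-set held only 30, 53 and 25 cells, with 247023 UMIs in all at 60 min. Scgb2b27 was at 28.3 CPM and Lao1 at 16.2 CPM in them there, so those ratios rest on few UMIs. Genes with 3 or fewer UMIs in a class in any library were not ranked as higher against it.

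Of the 84 genes lower in members, 42 were on chromosome 11, and 28 lay after 110 Mb (33.3%). Of all 4881 genes compared, 458 were on chromosome 11 and 87 lay after 110 Mb (1.78%). Of the 26 higher genes, 3 were on chromosome 11 and 0 lay after 110 Mb. The border of 110 Mb was set after the positions were seen, in place of a slightly lower one. The window of bases 105000001 to 110000000, before the border, also lay lower in members. Its median log2 ratios to the other gated cells were -0.50, -0.75 and -0.52. The 28 included Eif4a3, a core protein of the exon junction complex (chr11:119288363-119300089, mm10), and Nploc4, a cofactor of protein extraction (chr11:120380370-120437708). Eif4a3 was at 62.5, 64.3 and 55.4 CPM in members, 78.8, 77.7 and 71.5 CPM in Aqp5-set cells 569, 601 and 406 CPM in Klk-set cells and 124, 129 and 107 CPM in the gated cells with all 4 sums below 4. For this gene the members and the Aqp5-set cells were close to each other, the Klk-set cells were highest and the cells with low sums lay between.

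Counted per cell, genes after 110 Mb of chromosome 11 gave a median of 1.60%, 1.498% and 1.52% of the UMIs of members with at least 5000 UMIs. The medians were 1.81%, 1.66% and 1.61% in Aqp5-set cells, 1.46%, 1.49% and 1.41% in leukocytes, and 5.15%, 6.17% and 6.14% in Klk-set cells. A share over 4%, a limit also set after seeing the values, was reached by 20, 20 and 11 members (1.78%, 1.26% and 1.44%), by 54, 161 and 57 Klk-set cells (58.7%, 72.5% and 67.9%), by 38, 36 and 37 of the gated cells with all 4 sums below 4 (13.8%, 15.1% and 11.04%), and by 0 leukocytes. Among Ifit-set cells 2 of 26, 3 of 51 and 1 of 23 did, and their medians were 2.95%, 1.86% and 1.62%. High shares were thus most frequent in the Klk-set cells but were not theirs alone. With Klk-set cells left out of the others, 18 genes were lower in members in place of 84, of which 16 were among the 84, and 2 of the 18 lay after 110 Mb. Against the gated cells with all 4 sums below 4, 26 of 200 lower genes lay there (13.0%).

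**Figure D4:**
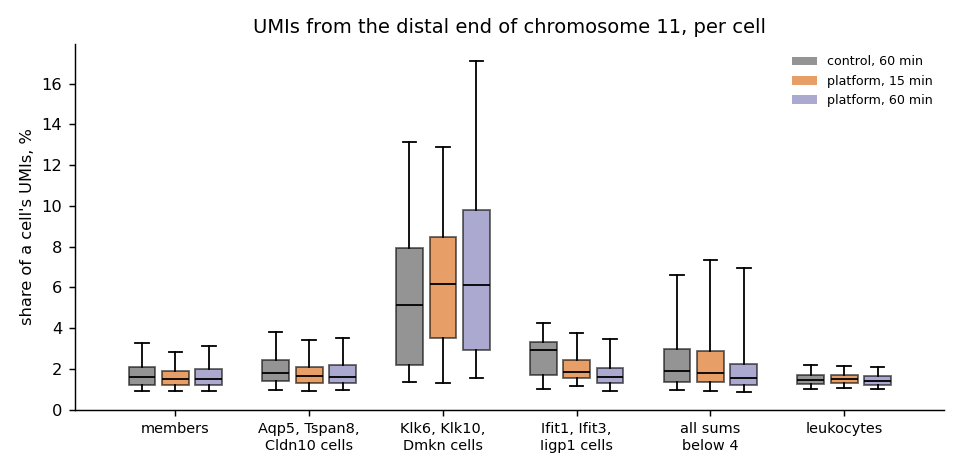
Percent of the UMIs of a cell that came from genes after 110 Mb of chromosome 11, by class and tumor library, over cells with at least 5000 UMIs. Lines are medians, boxes span the quartiles and whiskers the 5th to the 95th percentile. Medians lie between 1.41% and 1.81% in members, Aqp5-set cells and leukocytes and between 5.15% and 6.17% in Klk-set cells.

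The members were then compared between conditions, over genes with at least 100 member UMIs in the interval and the control together. At 15 min, 97 of 10177 genes had at least 2 times the CPM of the control (0.953%) and 163 had at most 1 over 2 of it (1.6%). At 60 min, 39 of 9397 genes were higher (0.415%) and 66 lower (0.702%). Both intervals share the control library, and 6 genes were higher and 49 lower in both. The median ratio over all genes at 15 min was 1.15, or 0.20 on the log2 scale, and at 60 min 0.976. With median-of-ratios scaling the 15 min count was 29 higher and 228 lower, so that 11.3% rather than 37.3% of its calls were higher.

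Csf3, Hbegf, Fosl1 and Noct were at most 1 over 2 of the control in members from both intervals. Csf3, a granulocyte growth factor, was at 107 CPM in the control (1478 UMIs in 100 members), at 0.221 CPM after the 15 min interval (4 UMIs in 3 members) and at 20.6 CPM after 60 min (185 UMIs in 20 members). Hbegf, a ligand of the EGF receptor, was at 268, 23.4 and 130 CPM. Fosl1, an AP-1 subunit, was at 45.0, 1.10 and 11.4 CPM, and Noct, a circadian phosphatase, at 51.5, 4.53 and 13.7 CPM. For these genes the control was highest and the 15 min interval lowest. The other gated cells had 15 min to control ratios of 0.00971 for Csf3, 0.180 for Hbegf, 0.0688 for Fosl1 and 0.208 for Noct, beside 0.00207, 0.0871, 0.0245 and 0.0879 in members.

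Counted as cells with a UMI at 5000 UMIs each, Hbegf was in 32.6% (29.8 to 35.4) of control members, 7.20% (5.97 to 8.58) at 15 min and 19.2% (16.5 to 22.2) at 60 min. Fosl1 was in 13.3% (11.4 to 15.5), 0.442% (0.178 to 0.908) and 3.66% (2.45 to 5.25). Leukocytes held 9.08, 0.565 and 5.40 CPM of Fosl1 and 20.8, 4.10 and 38.0 CPM of Hbegf, below the members in the control. Plaur, the urokinase receptor, was in 11.2%, 0.505% and 3.66% of members, but leukocytes held 447, 119 and 272 CPM of it against 43.7 CPM in control members. Cxcl2, a neutrophil chemokine, was in 13.4%, 2.46% and 13.7% of members, and leukocytes held 5483, 1641 and 7091 CPM of it. Its ratio at 60 min was 1.16, unlike those of the genes above. The part of free leukocyte RNA in the Plaur and Cxcl2 values was not tested.

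The dissociation stress list as a whole did not follow these genes. At 15 min its 12 genes had a median ratio of 0.886, with 5 above 1, 7 below 1 and 1 (Gadd45b) called lower. At 60 min 11 were above 1, the median was 1.18 and none was called. Jun had ratios of 1.35 and 1.47, Fos 1.01 and 1.35, and Egr1 1.31 and 1.33, while Atf3, a stress-induced repressor, was at 847, 427 and 900 CPM.

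Krt8, a keratin of simple epithelia, and Cldn4 were lower in members from both intervals. Krt8 was at 3243, 1273 and 1599 CPM and Krt18 at 3778, 1990 and 2206 CPM. Krt8 passed the limit at 15 min (ratio 0.393, 0.386 to 0.399) and at 60 min (0.493, 0.484 to 0.502), and Krt18 did not (0.527 and 0.584). Gated cells with a rule-gene sum of 0 at 5000 UMIs held 3321, 2142 and 1898 CPM of Krt8. In these cells Krt18 was at 3730, 2876 and 2396 CPM. Leukocytes held 34.4, 16.8 and 17.8 CPM of Krt8. Lower Krt8 and Krt18 in the intervals was thus not seen in members alone. Nor did the keratins Krt7 (0.814 and 0.953) and Krt19 (0.822 and 0.652), and Krt19 was seen in 40.1%, 41.4% and 42.0% of members at 5000 UMIs. Cldn4, a tight junction protein, was at 223, 31.7 and 101 CPM, and was seen in 30.1%, 9.28% and 16.9% of members at 5000 UMIs. Its ratio at 15 min was 0.142 in members and 0.377 in the other gated cells. Cldn3 was level, with ratios of 1.03 and 1.02.

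Most milk genes of the members were within 2-fold of the control. Lalba had ratios to the control of 1.06 at 15 min and 0.720 at 60 min, Csn3 1.15 and 1.12, Wap 1.07 and 0.984, and Elf5 1.23 and 1.11. Of 13 milk protein genes with enough UMIs at 15 min, 2 were higher (0.953% of all genes), Csn2 and Csn1s2a, which rest on the few cells described above, and at 60 min none was. Fcgbp was 1.90 times the control at 15 min (1.84 to 1.96) and 0.967 at 60 min, and Foxi1 2.04 times (1.88 to 2.22) and 1.33. Foxi1 and Fcgbp were also higher in the other gated cells at 15 min, by ratios of 1.90 and 1.67. Lalba, Fcgbp and Atp6v1b1 chose the cells in each library, so these ratios share that choice.

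Most genes that led the higher side at 60 min lay in few members. Of the 10 with the highest ratios, 9 had at least 50% of their UMIs in 10 cells, and at 15 min 6 of 10 did. On the lower side the counts were 1 of 10 at 15 min and 3 of 10 at 60 min. Col1a1, a collagen of fibroblasts, had 595 UMIs in 123 members at 60 min, of which 246 were in 1 cell, beside 39 UMIs in the control. All 111 Il12b UMIs at 60 min were in 1 member, against 3 in the control (ratio 57.1, 19.04 to 281), and Thbs4 had 122 UMIs in 12 members against 1 (ratio 188, 33.2 to 7496). Rgs5, a pericyte gene, had 112 UMIs in 7 members at 15 min and 0 in the control, at least 28.5-fold higher against a floor of 3 counts over the control members. The other gated cells also had higher Col1a1 at 60 min, with a ratio of 25.3 beside 23.5 in members, and higher Thbs4 (ratio 80.4). In those cells Il12b was at 0.0873 CPM at 60 min, and the Rgs5 ratio at 15 min was 0.636.

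The summed level of 6 fibroblast markers in members was 12.4, 38.3 and 196 CPM, and that of 4 pericyte markers 19.9, 36.2 and 20.1 CPM. In the other gated cells the fibroblast markers were at 17.7, 58.8 and 320 CPM and the pericyte markers at 21.2, 27.5 and 31.2 CPM. The higher fibroblast marker level at 60 min was thus not confined to members. Col1a1 was found in 1.16% (0.617 to 1.97), 2.34% (1.65 to 3.21) and 7.33% (5.58 to 9.41) of members at 5000 UMIs, with 13.0, 4.66 and 16.6 CPM in leukocytes. Summed macrophage markers were at 72.7, 56.3 and 54.6 CPM, granulocyte markers at 96.8, 56.2 and 96.4 CPM, T and NK markers at 4.99, 2.04 and 6.92 CPM, and endothelial markers at 6.07, 5.96 and 8.70 CPM. A doublet caller marked 6, 8 and 3 members (0.417%, 0.438% and 0.331%), which were kept. The part of other cell types in the fibroblast gene results was not tested.

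**Figure D5:**
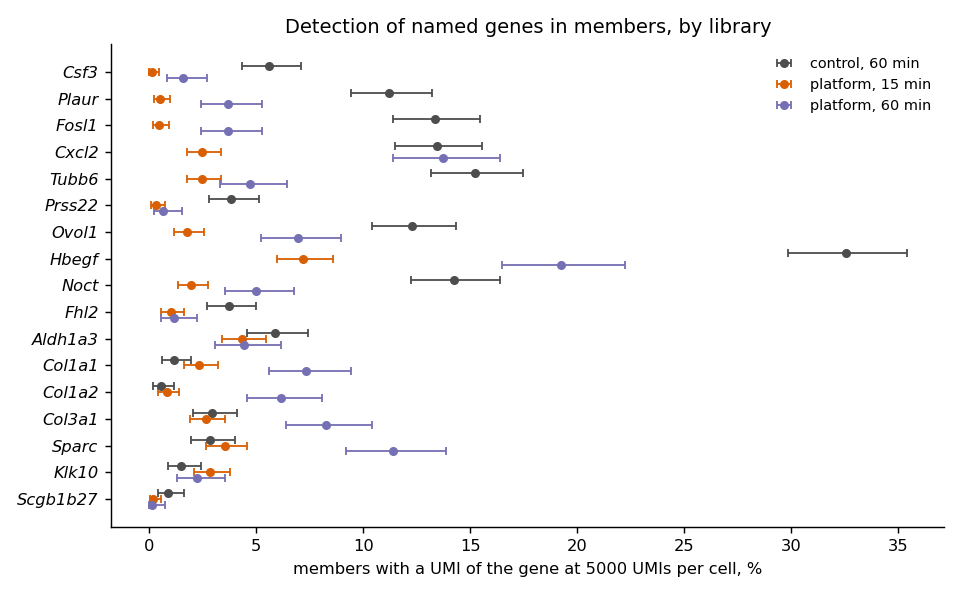
Percent of members with a UMI of each named gene after thinning to 5000 UMIs per cell, by tumor library, with bars for the 95% exact binomial interval. Csf3, Plaur, Fosl1 and Hbegf are highest in the control and lowest at 15 min (Hbegf 32.6% and 7.20%), and the collagen genes are highest at 60 min.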

How the data were processed

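The authors aligned 3′ droplet reads to mm10 with Cell Ranger 3.1.0 and equalised depth across the libraries of a tissue by aggregation, so the deposited UMI counts are whole numbers of molecules in reads thinned to a common depth. The deposited matrix holds no cell type labels, and the ending of each deposited barcode, a code and not a measured value, gave its library. The tumor libraries held 90414805 (control), 101222030 (15 min) and 97006183 (60 min) UMIs in all deposited cells.

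Counts were summed over cells of a class and library and given as CPM with Python 3.11.15, numpy 2.4.6, scipy 1.17.1 and pandas 2.3.3, with exact Poisson, binomial or conditional intervals at 95% for counting error. No test was run, because a condition is 1 library and the members were chosen on these counts. The members, gene lists and limits were chosen with earlier results of these data known, also where they come from a previous analysis of these files. Genes of the lists were named freely. Otherwise the 20 highest and 15 lowest ratios of members to the other gated cells were named, ranked by the library nearest to 1, with the 10 highest and 10 lowest of each interval and 5 each way against each class. Scrublet (scanpy 1.11.5, seed 0) marked 1.54%, 2.40% and 2.12% of cells and removed none. Alternatives covered the threshold, each rule gene, depth, filters, scaling and the set of other cells. The summing and calling steps were tested on simulated data.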

Additional observations from a re-analysis of the deposited data

Results flagged for a closer look

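Between the 15 min interval and the control, 11 of 10015 genes compared in both had ratios on opposite sides of 1 in members and in the other gated cells, with the counting intervals of both away from 1. Scgb1b27, a secretoglobin whose reads may be split with near-identical copies, had a ratio of 0.0592 (0.0429 to 0.0800) in members and 5.28 (4.38 to 6.43) in the others, and 98.1% of its 593 control UMIs in members lay in 10 cells. Csn2 had 2.11 (1.94 to 2.30) in members and 0.564 (0.421 to 0.753) in the others, but 1 member held 509 of the 1972 Csn2 UMIs at 15 min. By the share of cells with a Csn2 UMI at 5000 UMIs, members went from 1.69% (1.02 to 2.63) in the control to 1.26% (0.773 to 1.94) at 15 min and the others from 0.835% to 0.873%, so the opposite sides were not seen by cells. Aldh1a3, an aldehyde dehydrogenase, had 0.533 and 1.64, Krt17 0.227 and 1.27, and S100g, a calcium-binding protein, 1.89 and 0.230. However, 93.1% of the 101 Krt17 UMIs of control members lay in 10 cells. At 5000 UMIs, Krt17 was in 1.07% of control members and 0.379% at 15 min, and in 2.78% and 2.42% of the others, both lower. Aldh1a3 stayed on opposite sides by cells, at 5.87% and 4.36% of members and 7.88% and 11.1% of the others. The other genes were Tspan1, Scgb2b27, Tnfrsf23, Gm26532, Dppa1 and Birc5. The differences between members and others were not tested.

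Between the 60 min interval and the control, 5 of 9306 genes met the same limits: Fcer1g, Tyrobp, Fndc4, Dcpp1 and Cidea. Tyrobp, a signalling adaptor of myeloid cells, had a ratio of 0.434 in members and 1.54 in the others, and Fcer1g, which also marks macrophages, 0.389 and 1.35. These differences were not tested.

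In the kidney libraries, which enter no comparison above, 27 of 23317 kept cells met the rule for members (9, 3 and 15 by library), out of 446 that passed the luminal gate. Their rule-gene UMIs were 178 of Atp6v1b1, 4 of Fcgbp and 0 of Lalba, whereas Lalba gave 78.4% of these UMIs in the tumor members.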

How the results depend on the processing

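The order of the kept-cell shares (15 min, then control, then 60 min) held under every setting tried, and that of the gated-cell shares under all but the 3 that left a rule gene out of the sum. Values are in the order control, 15 min and 60 min. With a sum of at least 6, the shares were 22.9%, 29.8% and 13.4% of kept cells and 45.3%, 48.4% and 38.3% of gated cells. With at least 3, the 60 min gated share was 45.1%. Thinned to 5000 UMIs, the control kept share was 26.4% and the gated shares 45.0%, 46.7% and 36.9%. With no upper limit on genes the control kept share was 26.4%. With at most 10% mitochondrial UMIs the shares were 19.2%, 26.8% and 8.45% of kept and 47.3%, 48.5% and 37.1% of gated cells. Without Lalba in the sum they were 8.68%, 14.3% and 6.39% of kept and 17.1%, 23.2% and 18.2% of gated cells. Without Fcgbp they were 22.4%, 26.0% and 12.5%, and 44.2%, 42.2% and 35.7%. Without Atp6v1b1 they were 22.2%, 26.6% and 12.2%, and 43.8%, 43.2% and 34.7%. In the gated shares, the control stood above 15 min without Fcgbp and without Atp6v1b1, and 60 min above the control without Lalba.

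Against gated cells with all 4 sums below 4, 125 genes were higher and 200 lower in members, in place of 26 and 84. Enho then had a ratio of 3.44 and Mfge8 of 0.986, each on the other side of 1. Without Klk-set cells among the others, 18 genes were lower. Of 384 values of 48 genes named for members against others, 86 moved beyond the range of the gene's ratios over the 3 libraries and 2 changed side.

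For 15 min against the control (97 higher and 163 lower), a floor of 50 UMIs gave 162 higher, a floor of 400 UMIs gave 16 higher and 94 lower, median-of-ratios scaling gave 29 higher, thinning gave 54 higher and 99 lower, and the share of members with a UMI gave 151 higher and 100 lower. For 60 min (39 higher and 66 lower), a floor of 50 UMIs gave 83 and 111, a floor of 400 UMIs gave 18 and 35, and thinning gave 22 and 35. The cause of these moves was not tested, beyond the fewer or more genes that another floor admits. The settings that left out Klk-set cells, casein-rich cells or members with collagen UMIs, and that by the share of members with a UMI, were chosen after seeing the data.

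No paired analysis was possible because each condition has 1 library. Counting intervals do not cover differences between animals or between repeat digestions, and there is no replicate to leave out.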
